A study of Homo sapiens with 23 samples.

Results

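The genes described here are 10 genes named for hepatocytes, the main cells of the liver, and proposed as a hepatocyte-type programme of OV-90 cells. They are HNF4A, ALB, FGA, FGB, FGG, APOA1, APOA2, TTR, SERPINA1 and BHMT, they were picked by symbol through their NCBI Gene IDs, and all 10 had a row among the 21658 genes measured. RNA sequencing was done on 4 established human ovarian cancer cell lines, OV-90, Kuramochi, OVSAHO and EFO-21, each as the parental line and as a derivative resistant to prexasertib, an inhibitor of the DNA damage checkpoint kinase CHK1. The resistant cells had been grown for a long time in rising concentrations of the drug, so no group here was an acute treatment, and whether the replicates of a resistant line came from 1 selected population was not given in the sources used here. Each of the 8 groups had 3 libraries from separate replicates, except parental OV-90 with 2, which makes 23. Values were log2 expression with 1 value per gene, and the number of reads behind a value was not given. In each library 10% of genes lay below a value of 1.70 to 1.87 on this scale, and values there are called the bottom of the library. A difference that starts or ends at the bottom is not a measured fold change.

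The liver makes most of the proteins of blood plasma, and hepatocytes are recognised by the RNAs of albumin, fibrinogen, apolipoproteins and transthyretin. Their genes are read under a network of transcription factors, HNF4A, the FOXA factors, C/EBP factors and ONECUT1 among them, several of which are also used in the gut, pancreas and kidney. Hepatocytes also hold the enzymes that break down amino acids, and BHMT, betaine-homocysteine methyltransferase, hands a methyl group from betaine to homocysteine to make methionine. Some carcinomas of other organs, and yolk sac tumours, which are germ cell tumours, can carry parts of this programme.

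The label was checked first against the libraries. Parental OV-90 had ALB, the 3 fibrinogen chains, APOA2 and HNF4A above every library of the other parental lines, 6 of the 10 genes, and 19.5% of all genes had that pattern. APOA1, TTR and BHMT were shared with other parental lines, and SERPINA1 was lower in parental OV-90 than in parental OVSAHO and EFO-21, so 4 of the 10 genes went against a name that ties them to OV-90. The genes were chosen with these values known, and the counts describe the choice. PAX8, a lineage factor of the Mullerian epithelium, was low in parental OV-90, at 2.10 against 8.44 to 9.37 in the other parental lines. MSLN, mesothelin, was at -0.05 against 7.15 to 8.74. EPCAM, an epithelial surface protein, was at 12.30 against a mean of 8.66 in the others. These come from a list of 13 ovarian carcinoma genes. In parental OV-90 4 of the 13 were higher and 7 lower, at a limma adjusted p under 0.05 and at least 2-fold. Of all genes 20.9% were higher and 24.8% lower by that measure. The 2 parental OV-90 libraries stood further apart than other replicates, with 12.9% of genes more than 2-fold apart against 5.28% to 9.36% for pairs of libraries in the other groups, and each OV-90 result below rests on those 2 libraries.

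**Figure D1:**
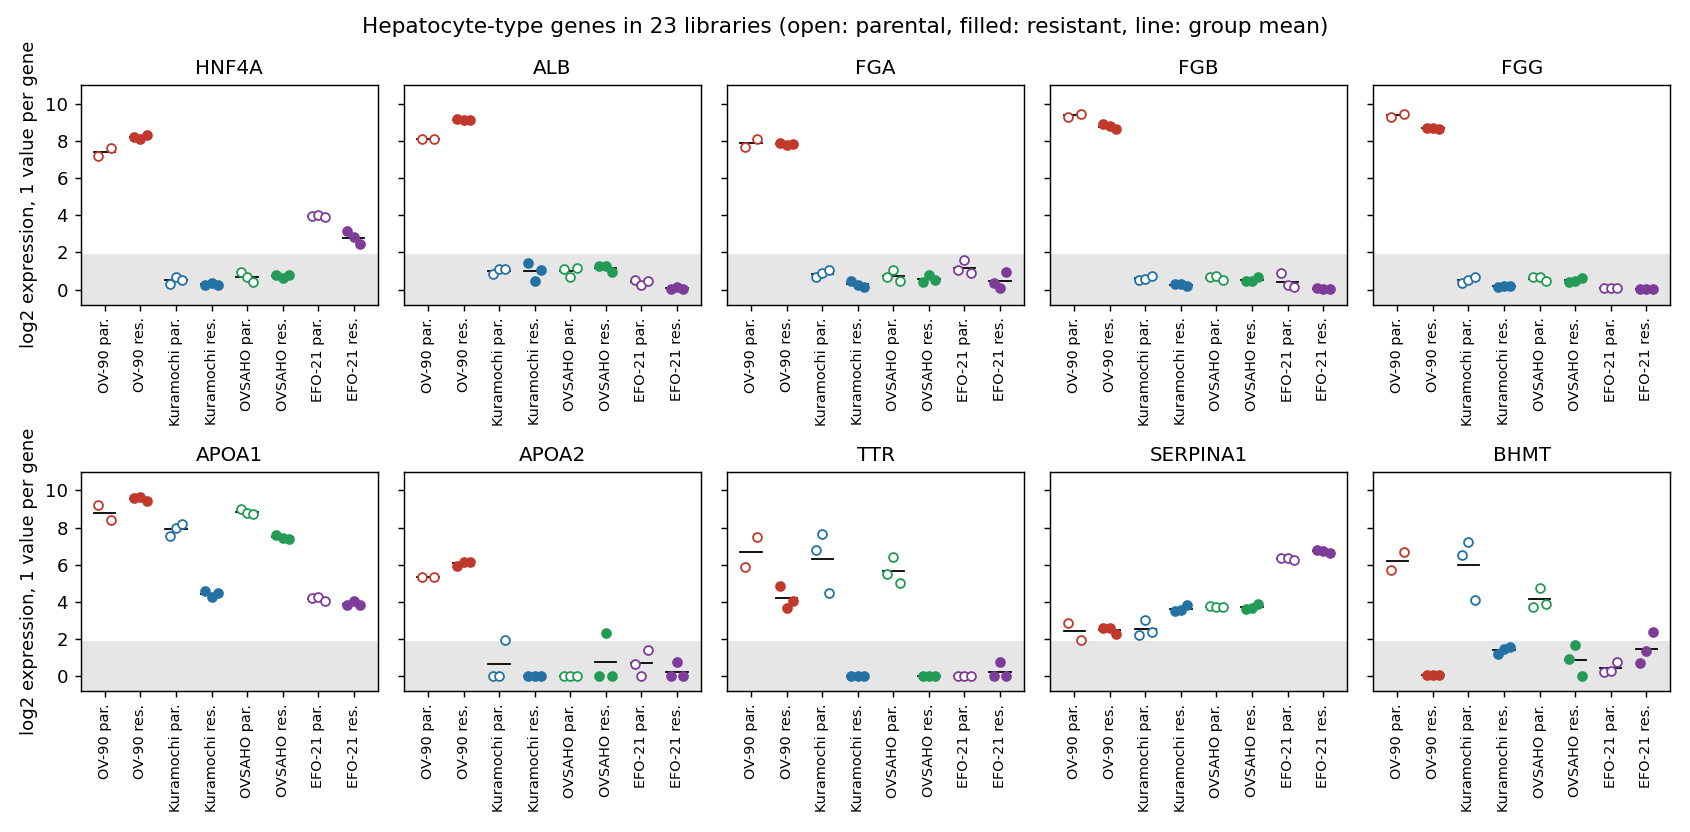
Log2 expression (y axis) of the 10 hepatocyte-type genes in each of the 23 libraries, by group (x axis). Open circles are parental and filled circles resistant libraries, black lines are group means, and grey marks values below 1.87, the highest bottom of any library. ALB, FGA, FGB and FGG sit at the bottom in all 18 libraries of the other lines, and SERPINA1 is low in OV-90 and in parental Kuramochi, which overlap.

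HNF4A is a nuclear receptor that drives many liver and gut genes. It lies on chromosome 20 at 42984339 to 43061485 (GRCh37, plus strand), and its value came from 24 exon features, which are the exons and exon junctions behind a gene's value. In parental OV-90 it was at 7.19 and 7.59, and in resistant OV-90 at 8.20, 8.12 and 8.32. All resistant libraries lay above both parental ones, by 0.82 on the log2 scale or 1.77-fold. EFO-21 was the only other line with HNF4A above the bottom. There the parental libraries had 3.95, 4.0 and 3.90 and the resistant ones 3.16, 2.81 and 2.43, so the groups did not overlap in the opposite direction. The fall by 1.15 (SE 0.22) in EFO-21 passed the test, with a limma adjusted p of 0.0071, and without resistant library 24 it was -0.96, short of 2-fold. The 12 libraries of Kuramochi and OVSAHO were all at the bottom. The order of group means was resistant OV-90, parental OV-90, parental EFO-21 and resistant EFO-21, with no overlap between neighbours, and then the 4 groups at the bottom.

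The other transcription factors of the liver network were read from a list of 24 further factors and nuclear receptors, all measured. Parental OV-90 was higher than the mean of the other parental lines in 19 of the 24 and lower in 3 at an adjusted p under 0.05 and at least 2-fold, where 20.9% of all genes were called higher and 24.8% lower. The median difference of the list was 4.49, and that of all genes -0.08. The largest differences were those of FOXA3 (8.28, SE 0.55, limma adjusted p = 4.9e-07) and FOXA2 (7.98, SE 0.59), pioneer factors of endoderm, of CREB3L3 (6.73, SE 0.22), a liver and gut factor of lipid metabolism, and of NR5A2 (6.63, SE 0.46), a nuclear receptor of bile acid synthesis. FOXA3 was at 10 and 10.44 in parental OV-90 and between 1.14 and 3.86 in the other parental libraries. Among the factors lower in parental OV-90 were CEBPB (-1.53) and PPARA. Not all of the network was particular to OV-90. Parental EFO-21 carried HNF4G at 4.38 to 4.92, which overlapped 4.18 and 5.13 in parental OV-90. HHEX, among the 19 called higher against the mean of the others, had parental means of 9.34 in EFO-21 and 9.28 in OV-90. ONECUT2 had 6.14 and 7.21 in the same order, and NR0B2 4.32 and 5.38. NR1I3 had parental means of 7.39 in Kuramochi, 7.22 in OVSAHO, 6.71 in EFO-21 and 6.99 in OV-90.

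**Figure D2:**
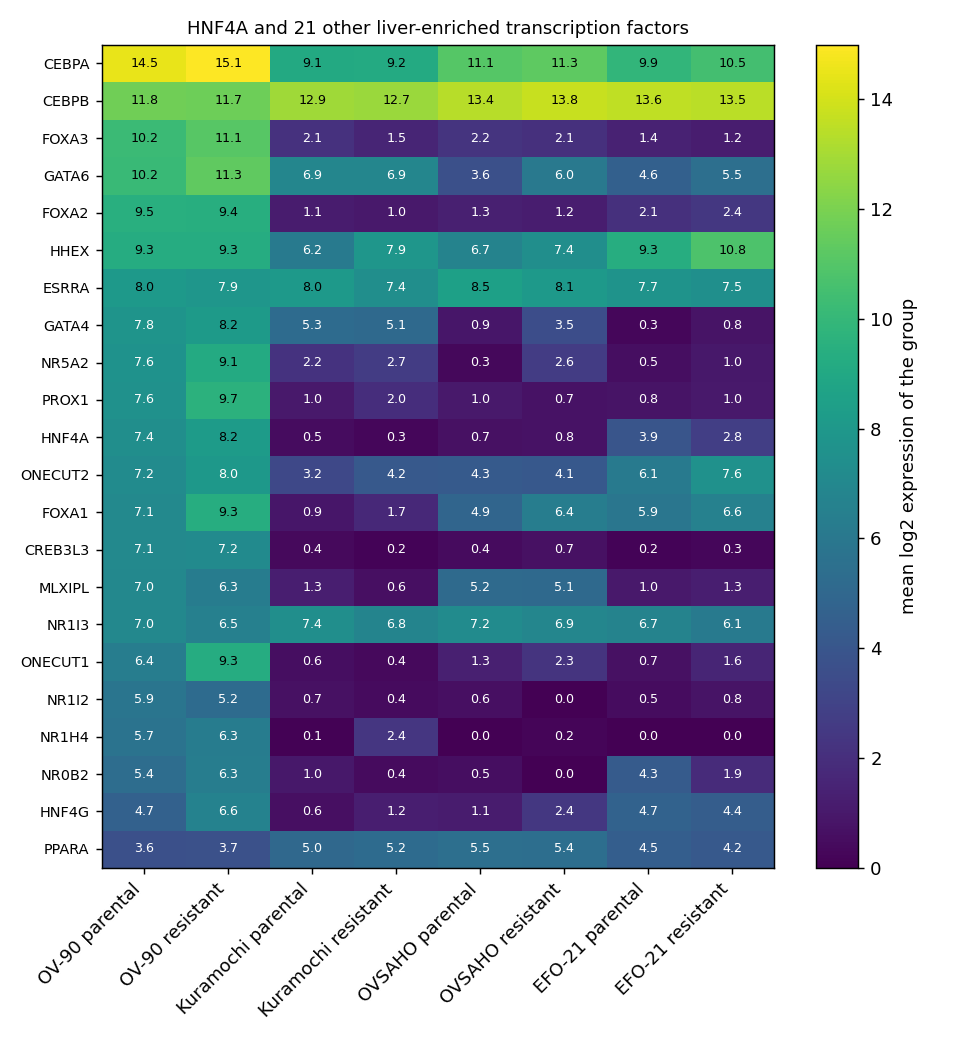
Mean log2 expression (colour and printed value) of HNF4A and 21 of the other liver-enriched transcription factors (rows, ordered by parental OV-90) in the 8 groups (columns). Values compare groups within a row and do not compare genes. FOXA3, FOXA2, CREB3L3, PROX1 and ONECUT1 are high in the OV-90 columns, and HNF4G, HHEX and ONECUT2 are among those also above the bottom in EFO-21.

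In resistant against parental OV-90, 6 of these 24 factors were called higher and 0 lower, where 9.5% and 6.56% of all genes were called. At an unadjusted p under 0.05 in limma, 4 of the 24 were lower. The factors called higher were ONECUT1, PROX1, FOXA1, NR5A2, HNF4G and GATA6. ONECUT1, a cut-domain factor of hepatocyte and bile duct development, was at 6.11 and 6.61 in parental and 9.28, 9.14 and 9.52 in resistant OV-90. The difference was 2.95 (SE 0.19, limma adjusted p = 0.00477). PROX1, a homeobox factor of liver bud cells, was at 7.47 and 7.65 in parental and 9.57, 9.47 and 9.92 in resistant OV-90, a difference of 2.09 (SE 0.16, limma adjusted p = 0.0059). Both calls held when any 1 library was left out. Without resistant library 13, 14 or 15 the count fell from 6 to 2 each time, since the calls of FOXA1 (2.26, SE 0.37), HNF4G (1.98, SE 0.31), NR5A2 (1.5, SE 0.31) and GATA6 (1.15, SE 0.17) were lost, that of GATA6 also without parental library 2. In OVSAHO, where HNF4A was at the bottom, 5 of the 24 were called higher, HNF4G, FOXA1, GATA4, GATA6 and NR5A2, against 3.93% of all genes. GATA4, a zinc finger factor of endoderm, had group means of 0.93 in parental and 3.55 in resistant OVSAHO, and GATA6 had 3.65 and 6.04. HNF4G went from 1.15 to 2.44 and NR5A2 from 0.31 to 2.64, so both, like GATA4, started at the bottom. In Kuramochi 2 were called higher and 1 lower, against 11.8% and 10.6% of all genes (4 higher without resistant library 17, and 2 lower without parental library 5 or resistant library 16), and in EFO-21 also 2 and 1, against 7.11% and 7.15%.

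ALB encodes albumin, the most abundant plasma protein, and FGA, FGB and FGG encode the alpha, beta and gamma chains of fibrinogen, the precursor of fibrin clots. ALB lies on chromosome 4 at 74262831 to 74287199 on the plus strand (GRCh37). The fibrinogen genes lie side by side on the same chromosome, FGB at 155484163 to 155493959 on the plus strand, FGA at 155504278 to 155511894 and FGG at 155525286 to 155534119, both on the minus strand. The 4 genes rest on 33, 17, 11 and 23 exon features in the order ALB, FGB, FGA and FGG. The 250 bases before the transcription start are shown for these 4 because they were above the bottom in OV-90 alone. The sequences are from RefSeq on GRCh38.p14, on the strand of the gene, and capitals mark a match to TTGCNNAA, a C/EBP pattern, on either strand. They span chr4:73404037-73404286 for ALB, chr4:154562730-154562979 for FGB, chr4:154590743-154590992 for FGA and chr4:154612657-154612906 for FGG.
ALB: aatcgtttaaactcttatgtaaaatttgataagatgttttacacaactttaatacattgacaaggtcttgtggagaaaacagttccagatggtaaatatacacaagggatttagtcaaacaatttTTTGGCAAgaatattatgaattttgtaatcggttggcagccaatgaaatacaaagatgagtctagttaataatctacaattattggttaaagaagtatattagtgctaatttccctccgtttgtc
FGB: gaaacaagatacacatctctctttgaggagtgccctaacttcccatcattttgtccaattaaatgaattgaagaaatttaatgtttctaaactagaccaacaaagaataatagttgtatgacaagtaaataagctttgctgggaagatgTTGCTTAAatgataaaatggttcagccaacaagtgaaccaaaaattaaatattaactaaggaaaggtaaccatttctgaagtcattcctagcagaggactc
FGA: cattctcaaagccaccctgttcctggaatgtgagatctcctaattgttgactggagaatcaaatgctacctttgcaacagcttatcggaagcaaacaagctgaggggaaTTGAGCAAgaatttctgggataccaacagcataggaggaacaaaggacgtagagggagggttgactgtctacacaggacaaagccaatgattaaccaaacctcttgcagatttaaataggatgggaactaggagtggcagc
FGG: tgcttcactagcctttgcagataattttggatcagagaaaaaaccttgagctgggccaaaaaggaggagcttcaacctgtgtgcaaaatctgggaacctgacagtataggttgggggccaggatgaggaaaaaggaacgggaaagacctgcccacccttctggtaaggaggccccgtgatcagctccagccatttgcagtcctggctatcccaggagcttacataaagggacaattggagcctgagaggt
ALB, FGB and FGA had 1 match each to the C/EBP pattern and FGG had none, and 9.05% of the 35116 promoters in the reference held a match in a window of this length. The HNF4 pattern CAAAGTCCA, held by 0.325% of promoters, and TATAAA, held by 10.7%, had no match in these 4 windows on either strand. A match is a string of letters and says nothing about binding.

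ALB was at 8.10 and 8.11 in parental OV-90 and at 9.15, 9.09 and 9.09 in resistant OV-90. The resistant libraries were higher by 1.0 on the log2 scale, 2.01-fold, with no overlap. In the other lines ALB ran from 0.01 to 1.43, at the bottom in all 18 libraries, so its orders and differences there describe the bottom of the scale. The fibrinogen chains did not share that direction. FGB was at 9.28 and 9.44 in parental and 8.89, 8.80 and 8.61 in resistant OV-90, lower by 0.59 on the log2 scale, which is 1.51-fold. FGG was at 9.29 and 9.44 in parental and 8.70, 8.71 and 8.61 in resistant OV-90, 1.61-fold lower. FGA overlapped, with 7.65 and 8.08 in parental and 7.90, 7.76 and 7.85 in resistant OV-90. Thus 2 fibrinogen chains were lower in resistant OV-90 without overlap while albumin was higher. In the other 3 lines the fibrinogen chains were at the bottom in all 18 libraries.

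The neighbours of the 10 genes on the chromosome were read next, a set chosen after values were seen. Of 33 other measured genes within 100 kb of a member, 8 were called higher and 7 lower in parental OV-90 than in the other parental lines, near the shares of all genes. AFP, alpha-fetoprotein, and AFM, afamin, the next genes of the albumin family, were called higher, by 5.58 (SE 0.20) and 5.28 (SE 0.40). AFP was at 7.17 and 7.06 in parental and 7.4 to 7.56 in resistant OV-90, and Kuramochi carried it at 4.04 to 4.43 in parental and 1.45 to 1.63 in resistant libraries. GC, the vitamin D binding protein of the same family and a gene of the plasma protein list, was at 6.67 and 6.21 in parental and 7.35, 7.34 and 7.0 in resistant OV-90, and at the bottom in all other libraries. PLRG1, LRAT and DCHS2, around the fibrinogen genes, were not called, and PLRG1 lay between 7.84 and 8.36 in the 8 group means.

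APOA1 and APOA2 encode the main proteins of high density lipoprotein. APOA1 lies on chromosome 11 at 116706467 to 116708338 and APOA2 on chromosome 1 at 161192082 to 161193421, both on the minus strand (GRCh37), with values from 9 exon features and from 1. APOA1 was expressed in all 4 lines, and its change had no common direction. In OV-90 it was at 9.2 and 8.39 in parental and 9.58, 9.62 and 9.41 in resistant libraries, 1.67-fold higher without overlap. In Kuramochi it was at 7.53, 7.99 and 8.19 in parental and 4.6, 4.27 and 4.47 in resistant libraries. That fall by 3.46 on the log2 scale (SE 0.20), 11-fold, had a limma adjusted p of 5.4e-05. In OVSAHO parental libraries had 8.99, 8.77 and 8.75 and resistant ones 7.59, 7.42 and 7.41, a fall by 1.36 (SE 0.09, limma adjusted p = 0.000298). EFO-21 had 4.03 to 4.26 in parental and 3.83 to 4.03 in resistant libraries, a difference of -0.27 (SE 0.15, limma adjusted p = 0.193). Parental OV-90 and parental OVSAHO could not be told apart by APOA1, since their libraries overlapped and their means differed by -0.05. The falls in Kuramochi and OVSAHO held when any 1 library was left out.

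APOA2 was at 5.36 and 5.35 in parental OV-90 and at 5.91, 6.17 and 6.15 in resistant OV-90, 1.65-fold higher without overlap. In the other lines 16 of 18 libraries were at the bottom, and the other 2 had 1.97 and 2.33. The genes next to APOA1 belong to the same apolipoprotein cluster. APOC3, an inhibitor of lipoprotein lipase 2.7 kb away, was at 5.96 and 5.19 in parental and 5.61 to 5.97 in resistant OV-90. It was called lower in resistant Kuramochi, with group means of 4.12 and 0.94, and in resistant OVSAHO, with 2.74 and 0.63. APOA4, 12.4 kb away and resting on 1 exon feature, was higher in parental OV-90 than in the other parental lines by 3.73 (SE 0.42). It was called higher again in resistant OV-90 (1.44, SE 0.33, limma adjusted p = 0.0329), but not in every fit that left out 1 library. BUD13, ZPR1 and SIK3, which flank the cluster, were not called between parental OV-90 and the others.

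TTR encodes transthyretin, a carrier of thyroid hormone and of retinol with its binding protein. It lies on chromosome 18 at 29136972 to 29178796 on the plus strand (GRCh37), and its value rests on 1 exon feature. Parental OV-90 had 5.90 and 7.48 and resistant OV-90 4.85, 3.70 and 4.07, a difference of -2.48 without overlap. Parental Kuramochi had 6.77, 7.66 and 4.46 and parental OVSAHO 5.52, 6.43 and 5.03, while the resistant libraries of these lines read 0 to 0.02. The tests gave a limma adjusted p of 0.0011 for Kuramochi and 0.000327 for OVSAHO, and since the resistant groups were at the bottom no fold change is given. All 6 EFO-21 libraries were at the bottom. Parental OV-90, Kuramochi and OVSAHO overlapped in TTR.

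SERPINA1 encodes alpha-1 antitrypsin, the main inhibitor of neutrophil elastase in plasma. It lies on chromosome 14 at 94843084 to 94857030 on the minus strand (GRCh37), and its value came from 13 exon features. In OV-90 it was at 2.88 and 1.97 in parental and 2.58, 2.62 and 2.27 in resistant libraries, which overlapped each other and parental Kuramochi, and these 3 groups lay below the other 5. EFO-21 had most of it, at 6.34, 6.36 and 6.28 in parental and 6.81, 6.73 and 6.64 in resistant libraries. The rise in EFO-21 was 0.40 (SE 0.07), 1.32-fold, with a limma adjusted p of 0.00468, and it did not reach 2-fold. In Kuramochi parental libraries had 2.24, 3.04 and 2.36 and resistant ones 3.53, 3.56 and 3.85. That rise by 1.10 (SE 0.27, limma adjusted p = 0.0177) was no longer called without parental library 4 (0.95), parental library 6 (1.01, limma adjusted p = 0.054) or resistant library 18 (1.0, limma adjusted p = 0.0576). In OVSAHO all libraries lay between 3.60 and 3.90.

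BHMT lies on chromosome 5 at 78407632 to 78428111 on the plus strand (GRCh37), and its value rests on 2 exon features. BHMT2, its close copy, had no row among the genes measured, and reads shared between them cannot be told apart. The 250 bases before its start, at chr5:79111559-79111808 of GRCh38.p14 on the plus strand, are shown for contrast with the albumin and fibrinogen windows, with the TATAAA match, 29 to 24 bases before the start, in capitals.
BHMT: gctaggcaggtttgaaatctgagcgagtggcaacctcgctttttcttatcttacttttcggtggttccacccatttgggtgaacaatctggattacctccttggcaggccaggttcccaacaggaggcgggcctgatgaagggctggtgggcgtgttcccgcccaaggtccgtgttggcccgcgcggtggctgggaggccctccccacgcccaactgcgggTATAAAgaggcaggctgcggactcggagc
The window held no match to the HNF1, HNF4 or C/EBP patterns. BHMT was at 5.71 and 6.71 in parental OV-90 and at 0.06, 0.07 and 0.06 in resistant OV-90, a difference of -6.15 that ends at the bottom. It was also present in parental Kuramochi, at 6.53, 7.23 and 4.12, and in parental OVSAHO, at 3.72, 4.77 and 3.91. Resistant Kuramochi had 1.21, 1.49 and 1.57 and resistant OVSAHO 0.95, 1.71 and 0.02, all at the bottom. The falls passed the test in both lines, with a limma adjusted p of 0.0041 in Kuramochi and 0.00539 in OVSAHO. EFO-21 had 0.25, 0.31 and 0.78 in parental and 0.74, 1.34 and 2.40 in resistant libraries, which overlapped, with 1 resistant library above the bottom. The fall of BHMT was therefore found in 3 of the 4 lines, 2 of which had no ALB or HNF4A above the bottom.

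Across the 10 genes, resistant OV-90 lay above parental OV-90 without overlap in 4 (HNF4A, ALB, APOA1 and APOA2), below it in 4 (FGB, FGG, TTR and BHMT) and overlapped in 2. Of all genes 32.0% lay above and 37.1% below without overlap, and the genes had been chosen partly for this contrast, so nothing is read from the counts. The median difference of the 10 genes was 0.02, and that of all genes -0.06. In Kuramochi 1 of the 10 was called higher (SERPINA1) and 3 lower (APOA1, TTR and BHMT), where 11.8% and 10.6% of all genes were. In OVSAHO 0 were called higher, with 0 of the 10 at an unadjusted p under 0.05 in that direction in limma, and 3 lower (APOA1, TTR and BHMT), where 3.93% and 3.83% of all genes were. In EFO-21 1 was called lower (HNF4A) and 0 higher, with 1 higher at an unadjusted p under 0.05 in limma, where 7.15% and 7.11% of all genes were.

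**Figure D3:**
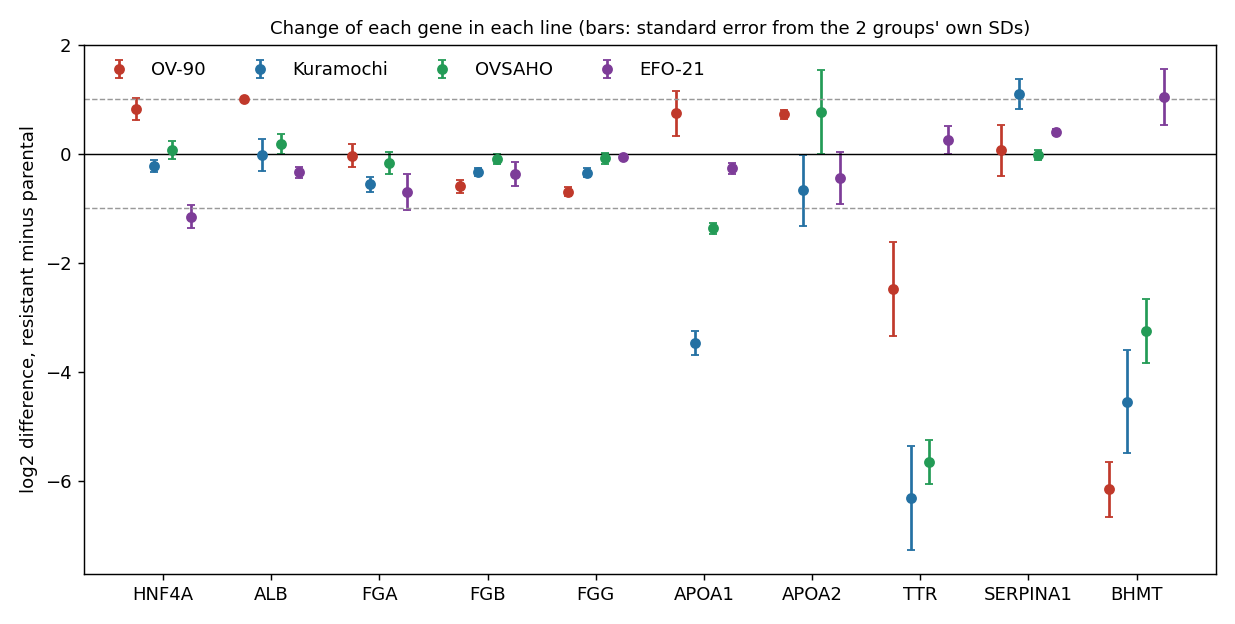
Difference in log2 expression, resistant minus parental (y axis), of each of the 10 genes (x axis) in the 4 lines (colours). Bars are standard errors from the SDs of the 2 groups, and dashed lines mark 2-fold. BHMT and TTR are below 0 in OV-90, Kuramochi and OVSAHO, and HNF4A and APOA1 are above 0 in OV-90 and at or below it in most other lines.

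The methionine and betaine enzymes around BHMT were read from a list of 23 genes, 22 of them measured. In resistant OV-90 2 were called higher and 2 lower, in Kuramochi 1 and 5, in OVSAHO 1 and 2 and in EFO-21 1 and 1. These were 9.09% higher and 9.09% lower in OV-90, where 9.5% and 6.56% of all genes were called, 4.55% and 22.7% in Kuramochi against 11.8% and 10.6%, 4.55% and 9.09% in OVSAHO against 3.93% and 3.83%, and 4.55% both ways in EFO-21 against 7.11% and 7.15%. CDO1, cysteine dioxygenase, which breaks down cysteine, was the member of this list called lower in OV-90, Kuramochi and OVSAHO alike. It rests on 2 exon features and had group means of 5.52 and 0.60 in parental and resistant OV-90, 4.56 and 0.22 in Kuramochi and 4.30 and 1.53 in OVSAHO. Its call was lost without resistant library 13 or 14 in OV-90 and without parental library 7, 8 or 9 or resistant library 20 in OVSAHO. The enzymes that remake methionine with folate were not called in any of the 4 resistant lines. MTR, methionine synthase, had group means of 4.40 and 5.38 in parental and resistant OV-90, and MTRR, its reductase, 5.91 and 6.86, differences of 0.98 and 0.96 that did not reach 2-fold. SARDH, sarcosine dehydrogenase, was called higher in OV-90 by 1.73 (SE 0.24), and MAT2A, which makes S-adenosylmethionine outside the liver, by 1.28 (SE 0.29). Both calls were lost without any 1 of the resistant libraries 13, 14 and 15, and that of MAT2A also without parental library 2. DMGDH, dimethylglycine dehydrogenase, whose gene overlaps BHMT, was above the bottom in EFO-21, at group means of 5.45 and 5.30, and at means of 0.43 to 1.79 in the other groups.

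The genes whose pattern over the 8 group means was most like that of BHMT included the gene with ID 3 (Pearson r = 0.982) and GPX1P2, a glutathione peroxidase pseudogene (r = 0.980). They were taken from 13351 genes whose group means spanned at least 2. Of the 25 most alike, 24 rested on 1 or 2 exon features, against 26.9% of all genes, and pseudogenes of ribosomal proteins and of GAPDH were among them. For ALB and HNF4A the counts were 1 of 25 and 5 of 25. Group means share libraries, normalization and low values, so these r values describe the pattern only. PLG, plasminogen, with r = 0.965, was at 3.92 and 5.94 in parental OV-90, 5.09, 6.03 and 3.44 in parental Kuramochi and 2.79, 5.25 and 4.39 in parental OVSAHO, and read 0 to 1.82 in the other 15 libraries. CDO1, with r = 0.957, had the same outline. Each of BHMT, TTR, PLG and CDO1 was above the bottom in all 8 parental libraries of OV-90, Kuramochi and OVSAHO, and 12 to 15 of the other 15 libraries were at the bottom.

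**Figure D4:**
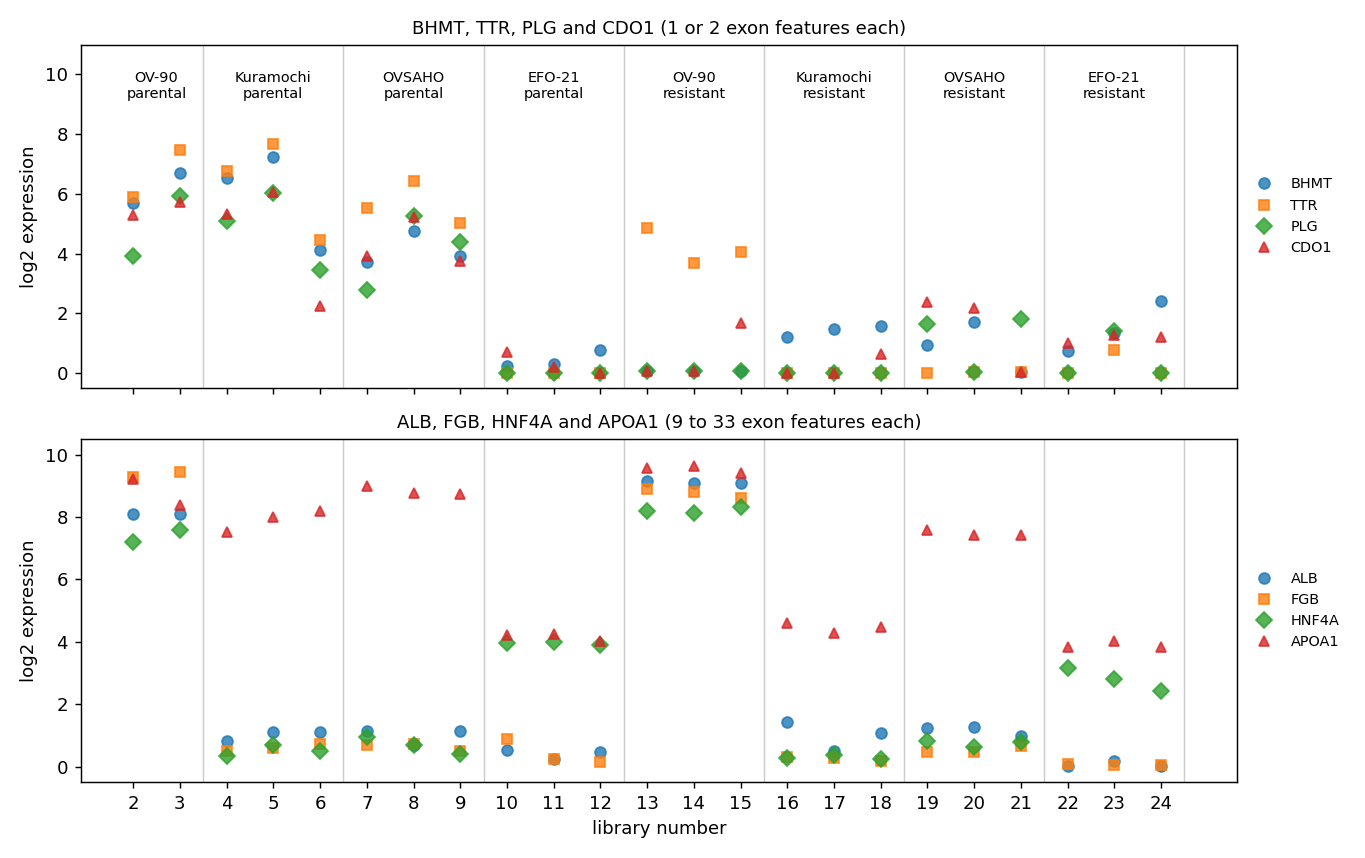
Log2 expression (y axis) in the 23 libraries by library number (x axis), for BHMT, TTR, PLG and CDO1 (upper panel) and ALB, FGB, HNF4A and APOA1 (lower panel). In the upper panel the genes are above the bottom in libraries 2 to 9, with library 6 the lowest of Kuramochi for each, and are near 0 in most others, and in the lower panel ALB and FGB are high in OV-90 alone.

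Within the 8 parental libraries of OV-90, Kuramochi and OVSAHO, with the mean of each line taken off, BHMT followed CDO1 with r = 0.977, TTR with r = 0.972, CES1P2, a pseudogene, with r = 0.967 and PLG with r = 0.866. It followed ALB with r = -0.424, FGB with r = -0.161 and HNF4A with r = 0.216. These genes were chosen after their values were seen, and the points are libraries of 3 lines that share normalization. In Kuramochi, library 6 was lowest for each of BHMT, TTR, PLG and CDO1 and library 5 highest. In OV-90, library 3 was above library 2 for all 4. In OVSAHO, library 8 was highest for each, and the lowest library was not the same for all. Markers of blood and stroma were also read beside this. The mean of 5 markers ran from 4.58 to 6.05 in parental OV-90, 1.91 to 3.73 in parental Kuramochi and 2.94 to 4.12 in parental OVSAHO, and from 1.80 to 1.83 and 1.20 to 1.61 in resistant Kuramochi and OVSAHO. Resistant OV-90 ran from 3.69 to 4.17, and EFO-21 from 3.95 to 4.24 in parental and 3.55 to 3.87 in resistant libraries. Of these 5, 1 was called lower in resistant OV-90 (PECAM1), 3 in OVSAHO (HBB, PTPRC and CD3E) and 1 in EFO-21 (CD14), and in Kuramochi 2 had an unadjusted p under 0.05 in limma and 0 were called. Of all genes 6.56% were called lower in OV-90, 3.83% in OVSAHO, 7.15% in EFO-21 and 10.6% in Kuramochi. The call of CD3E in OVSAHO, on 2 exon features, held in 1 of 6 fits that left out 1 library. In resistant Kuramochi HBB and CD3E were listed at 0. The part of these markers, or of values that rest on few exon features, in the change of BHMT and TTR was not tested.

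The genes most like ALB over the 8 group means were LOC153910 (r = 1.0), LINC00261 (r = 0.999), a long RNA beside FOXA2, and CDH12 (r = 0.999), a cadherin. Those most like HNF4A were L3MBTL3 (r = 0.997), a chromatin reader, the gene with ID 101927806 (r = 0.994) and ADAM28 (r = 0.993), a membrane protease. FOXA3 was the fifth most like ALB, with r = 0.998, and GC the eleventh, and both are named here after their values were seen. Most of the 25 genes most like ALB were on none of the hepatocyte lists. CD79A (r = 0.999), CSF1R (r = 0.998), CD3G (r = 0.996) and CLDN18 (r = 0.996) were among these.

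Other plasma proteins were read from a list of 84 genes, 63 of them measured. Exons below 10 reads in over 80% of the libraries had been dropped. A listed gene read in OV-90 alone could therefore stay, while one silent in every line could not. This limits the shares below, which are of measured genes and can lean towards OV-90. Parental OV-90 was higher than the other parental lines in 36 of the 63 (57.1%) and lower in 9 (14.3%), where 20.9% and 24.8% of all genes were called, with a median difference of 1.93. SERPIND1, heparin cofactor II, an inhibitor of thrombin, was higher by 10.59 (SE 0.24, limma adjusted p = 3.11e-10), with 11.85 and 12 in parental OV-90 and 0.90 to 1.74 in the other parental libraries. ITIH2, which links hyaluronan, was higher by 7.76 (SE 0.24), APOB, the protein of low density lipoprotein, by 7.13 (SE 0.47), and APOC1, a small lipoprotein component, by 7.07 (SE 0.26). SAA1, an acute phase protein, was lower by 4.87 (SE 0.39) and SERPINA5, an inhibitor of activated protein C, by 4.05 (SE 0.16). As with SERPINA1, not all proteins of this list were high in OV-90. The other hepatocyte enzymes and transporters, 36 measured of 54, had 21 (58.3%) called higher and 6 (16.7%) lower in parental OV-90, against the same shares of all genes, with a median of 2.26. ALDH1A1, a retinal dehydrogenase, was higher by 6.94 (SE 0.16), ADH1B, an alcohol dehydrogenase, by 6.73 (SE 0.22), MTTP, which loads lipid onto apolipoprotein B, by 5.91 (SE 0.28) and UGT1A1, which conjugates bilirubin, by 5.33 (SE 0.15). ASS1, a urea cycle enzyme, was lower by 6.57 (SE 0.09) and GYS2, liver glycogen synthase, by 3.86 (SE 0.20). The methionine list was level, with 5 (22.7%) called higher and 6 (27.3%) lower and a median of -0.10.

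**Figure D5:**
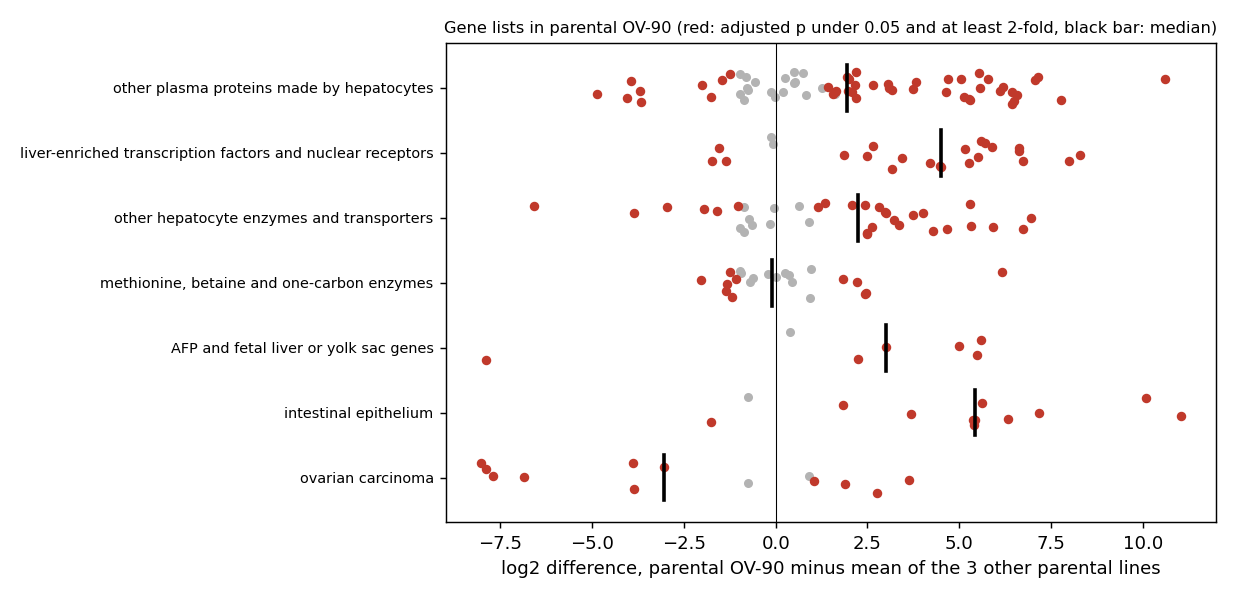
Difference in log2 expression between parental OV-90 and the mean of the 3 other parental lines (x axis) for each measured gene of 7 gene lists (y axis). Red points passed the test, grey points did not, and black bars are medians. The medians are 1.93 for plasma proteins, 4.49 for transcription factors, 5.41 for intestinal genes and -3.05 for ovarian carcinoma genes.

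Genes of the intestine, another organ that uses HNF4A, were also high in parental OV-90. Of 12 measured intestinal genes 10 were called higher and 1 lower, with a median of 5.41, where 20.9% of all genes were called higher and 24.8% lower. Since 16 genes were listed, the limit of the exon filter holds here too, as it does for the fetal liver and kidney lists. TFF3, a mucus peptide, was higher by 11.02 (SE 0.40), REG4, a secreted lectin, by 10.09 (SE 0.28), ISX, an intestinal homeobox factor, by 7.17 (SE 0.22) and CDX2, the main intestinal homeobox factor, by 6.32 (SE 0.29). Among 7 measured genes of fetal liver or yolk sac 5 were called higher, with AFP, SALL4 (5.48, SE 0.28), a stem cell zinc finger factor, and GPC3 (4.98, SE 0.11), a surface glypican, among them, and SOX17 was lower by 7.87 (SE 0.10). Of 10 bile duct genes 5 were called higher and 3 lower, of 6 kidney tubule genes 3 and 2, and of 13 ovarian carcinoma genes 4 and 7. The bile duct and kidney lists thus went both ways. Their genes called higher, 5 of 10 and 3 of 6, were a larger share than the 20.9% of all genes. The shares called lower, 30.0% and 33.3%, lay nearer the 24.8% of all genes and rest on 3 and 2 genes.

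In resistant OV-90 genes of these lists were called in both directions. Of the 145 genes of the plasma protein, transcription factor, methionine and enzyme lists together, 26 (17.9%) were called higher and 18 (12.4%) lower, where 9.5% and 6.56% of all genes were, with a median of -0.13. F11, coagulation factor XI, rose by 2.00 (SE 0.12, limma adjusted p = 0.00415) and ITIH2 by 2.13 (SE 0.16), while CYP2E1, an ethanol-oxidising cytochrome, fell by 3.77 (SE 0.30). PON3, a lactonase carried on lipoprotein, was also called lower, from a mean of 3.15 in parental to 0.06 in resistant OV-90. It rests on 2 exon features and ended at the bottom, so its difference is not a measured fold change. The same holds for PLG and APOA5 below, with resistant means of 0.06 and 1.65. AGT, angiotensinogen, rose by 2.59 (SE 0.24), TDO2, tryptophan dioxygenase, by 3.04 (SE 0.25) and MTTP by 2.70 (SE 0.24), and these 3 calls were lost without resistant library 13 or 15. The calls of PLG (-4.87) and APOA5 (-2.95) were lost without library 13, 14 or 15, and that of APOA5 also without either parental library. Without resistant library 13, 14 or 15 the counts of the 4 lists fell to 4, 8 or 5 higher and 3, 4 or 4 lower, and the genes called in all 5 such fits were 4 higher (ONECUT1, PROX1, F11 and ITIH2) and 3 lower, CYP2E1 and PON3 among them.

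In the other lines the same 145 genes had 13 called higher and 31 lower in Kuramochi, 14 and 18 in OVSAHO and 16 and 18 in EFO-21, with medians of -0.21, -0.07 and 0.00. In Kuramochi that was 8.97% higher and 21.4% lower, where 11.8% and 10.6% of all genes were called. In OVSAHO it was 9.66% and 12.4%, against 3.93% and 3.83%, and in EFO-21 11% and 12.4%, against 7.11% and 7.15%. In Kuramochi AGT rose by 4.70 (SE 0.51) and APOE, a lipoprotein ligand of the LDL receptor, fell by 4.56 (SE 0.23), beside the fall of APOA1. In OVSAHO C4BPA, a chain of the complement inhibitor C4b-binding protein, rose by 2.46 (SE 0.20) from a parental mean at the bottom. RBP4, the retinol carrier that binds transthyretin, fell there by 3.03 (SE 0.27) to a resistant mean of 1.76, near the bottom. In EFO-21 ITIH3 rose by 2.60 (SE 0.17) from a parental mean of 1.64, at the bottom, while SAA1 fell by 4.58 (SE 0.08) and LIPC, hepatic lipase, by 3.08 (SE 0.09). PLG was called lower in Kuramochi and OVSAHO as well as in OV-90, with the resistant groups at the bottom. Leaving out the genes with 1 or 2 exon features, 28 of the 145, changed the counts to 22 higher and 12 lower in OV-90, 11 and 23 in Kuramochi, 13 and 11 in OVSAHO and 10 and 16 in EFO-21.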

How the data were processed

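RNA was sequenced from 23 libraries of 4 cell lines with a stranded mRNA kit as paired reads. The authors aligned reads to GRCh37/hg19 (both named in the submitters' processing notes) with an aligner they call GSNP, dropped exons below 10 reads in over 80% of the libraries, fitted a robust linear model over the exon and junction reads of each gene, and quantile normalized each sample. The deposited values are log2 expression, with a deposited number of exon features per gene, of up to 75. Depth is unknown, so no counting error can be given, and quantile normalization gives all libraries nearly the same distribution. Columns show the group but no replicate number, and libraries are named here by their library number, 2 to 24. No sample column was left unused (0).

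Symbols came from RefSeq by gene ID, positions from GENCODE lifted to GRCh37. Resistant minus parental was fitted in each line, and parental OV-90 against the mean of the 3 other parental lines, with limma 3.58.1 in R 4.3.3 (mean-variance trend, Benjamini-Hochberg adjustment over all 21658 genes, no filter). Called means an adjusted p under 0.05 and at least 2-fold. The 10 genes got no test in OV-90, since they were chosen by those values. The members and lists were chosen with earlier results of these data known. From each list the text names up to 4 genes with the largest and 2 with the smallest difference of parental OV-90 among those called, up to 3 rises and 3 falls per line among called genes whose groups do not overlap, and the 3 genes most like ALB, HNF4A and BHMT over group means that span at least 2. Genes named outside this rule are values beside a result or were chosen after seeing them. Fits were tested on simulated data. Alternatives were a fit of all 23 libraries, no trend, a filter on the lowest 25% of gene means, recentred libraries, other fold thresholds and leaving out each library. Some genes that the naming rule gives are not reported here, and they stay in the counts.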

Additional observations from a re-analysis of the deposited data

Results flagged for a closer look

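The results below were singled out because the change from parental to resistant cells differed between lines. For pairs of lines other than OV-90 the difference of the 2 changes was tested in limma with all 23 libraries. The fall of APOA1 was larger in Kuramochi than in OVSAHO by -2.10 (SE 0.25, adjusted p = 1.4e-06) and than in EFO-21 by -3.19 (adjusted p = 4.75e-09), and larger in OVSAHO than in EFO-21 by -1.10 (adjusted p = 0.00212). TTR differed by -6.55 between Kuramochi and EFO-21 and by -5.90 between OVSAHO and EFO-21, and BHMT by -5.58 and -4.29, where EFO-21 was at or near the bottom in parental cells. The change of HNF4A differed by 1.22 between OVSAHO, at the bottom, and EFO-21 (adjusted p = 0.00265). SERPINA1 differed by 1.12 between Kuramochi and OVSAHO (adjusted p = 0.00564), and the call of its rise in Kuramochi was lost without 3 of the libraries.

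In pairs with OV-90 the difference was not tested. APOA1 lay higher in every resistant OV-90 library and lower in every resistant Kuramochi and OVSAHO library, and the changes differed by 4.20 and 2.10. HNF4A lay higher in resistant OV-90 and lower in resistant EFO-21, and the changes differed by 1.97. APOA2 lay higher in resistant OV-90 and lower in resistant Kuramochi, and the changes differed by 1.39, with 5 of 6 Kuramochi libraries at the bottom.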

How the results depend on the processing

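No paired analysis was possible because the columns carry no replicate numbers. Counts below are genes of the 4 lists together (145 genes), and gene values are log2 differences. With the filter on low values, which kept 64 of the 145 genes and 2 of the 10 members, called genes numbered 10 higher and 4 lower in OV-90, 4 and 13 in Kuramochi, 8 and 2 in OVSAHO, 6 and 11 in EFO-21 and 24 higher in parental OV-90, fewer by construction. At 1.5-fold the counts were 28 lower in OV-90, 22 higher in Kuramochi and 31 higher and 32 lower in EFO-21. With no fold threshold they were 32 lower in OV-90, 23 higher in Kuramochi, 29 and 28 (higher, lower) in OVSAHO, 42 and 39 in EFO-21, and 37 lower in parental OV-90. Without genes of 1 or 2 exon features, an alternative added after seeing the data, OVSAHO had 11 lower and EFO-21 10 higher. Leaving out 1 library gave 4 to 30 higher and 3 to 21 lower in OV-90, with the low counts without resistant libraries 13, 14 and 15, 11 to 17 higher and 27 to 31 lower in Kuramochi, 11 to 13 and 12 to 17 in OVSAHO, 16 to 19 and 16 to 19 in EFO-21, and 76 to 83 and 24 to 25 in parental OV-90. Of the members, leaving out 1 library turned the sign of values near 0, with ranges -0.24 to 0.23 for ALB in Kuramochi, -0.11 to 0.04 for SERPINA1 and -0.07 to 0.20 for HNF4A in OVSAHO, and the cause was not tested. In OV-90 FGA was at 0.18 without parental library 3 and 0.01 without resistant library 14, and SERPINA1 at -0.39 without parental library 3. BHMT in EFO-21 was called higher without resistant library 22 (1.42, limma adjusted p = 0.0343). The fits with 23 libraries, without trend and with recentred libraries kept every list count within 1.5 times. Unknown depth and 2 parental OV-90 libraries limit precision.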
